A study of Mus musculus with 6 samples.

Results

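The lipoprotein lipase system comprises the enzyme that frees fatty acids from circulating triglyceride, the proteins that mature, anchor and inhibit it, and the receptors and apolipoproteins that take part in lipid delivery. Here it was followed through 9 genes chosen by symbol, which are 9 of the 54385 gene entries of the count table: Lpl, Gpihbp1, Lmf1, Angptl4, Angptl8, Vldlr, Cd36, Apoe and Apoc1. Each symbol matched 1 entry, and all 9 passed the filter on low counts, with between 274 and 74720 estimated counts per library. The libraries were of polyadenylated RNA from the interscapular brown fat of C57BL/6N mice, with 2 groups of 3. All mice had eaten chow for 20 weeks and had been held at 5 °C for 24 hours before collection, and only cold-exposed mice were analysed here. The control group carried Adcy3-FL/FL with wild-type Adipoq alleles and no Cre. The knockout group carried the same Adcy3-FL/FL alleles together with Adipoq-Cre. Adcy3 codes for adenylyl cyclase 3, which produces the messenger cyclic AMP at membranes, and the comparison asks how brown fat in the cold differs when its adipocytes lack it. Adipoq-Cre acts in adipocytes and leaves the gene intact in endothelial cells, macrophages and muscle fibres, whose RNA is also in the tissue. In whole tissue, fewer cells of a type and less RNA per cell cannot be told apart. The labels do not state that each library came from a separate animal, so p-values measure the spread between these libraries.

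Total estimated counts ranged from 13956786 to 17538044 per library. The targeted gene checked the labels: Adcy3 averaged 153.9 ± 17.7 counts per 1000000 (CPM) in the control group against 25.4 ± 4.36 CPM in the knockout group (SD, n = 3 each), a log2 fold change of -2.60 (SE 0.17, edgeR adjusted p = 0.00146). The tissue carried its defining marker Ucp1 at 5398 to 6008 CPM in controls and 7111 to 7592 CPM in knockouts. Adipoq, 1 of 8 general adipocyte markers, stood at 287 to 317 CPM in controls and 295 to 347 CPM in knockouts. Skeletal muscle RNA differed sharply between libraries. The summed level of 16 muscle markers was 13540 to 18150 CPM in controls, 8345 CPM in knockout library 1, 632.5 CPM in knockout library 2 and 63.4 CPM in knockout library 3. Acta1, the skeletal muscle actin, ran from 2525 to 3025 CPM in controls and from 5.35 to 1793 CPM in knockouts, and no marker list had a gene at 0 in every library. Knockout library 1 thus stood apart from the other knockout libraries in muscle RNA.

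Lipoprotein lipase is made by adipocytes and muscle fibres, folds in the endoplasmic reticulum with the help of LMF1, and is carried across capillary endothelium and held on its luminal face by GPIHBP1. There it hydrolyses the triglyceride of chylomicrons and very low density lipoproteins, and angiopoietin-like proteins restrain it. Brown fat in the cold draws heavily on this route, with CD36 passing the freed fatty acids into cells and apolipoproteins such as APOE guiding the particles to receptors.

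Promoter windows are shown for Angptl8 and Lmf1, whose knockout libraries all lay above the controls, as in 7.63% of all genes tested. A window is also shown for Apoe, the member with a fold change below 0. None of these members reached an adjusted p under 0.05 in the genotype comparison with all libraries. The sequences are from RefSeq on GRCm38.p6, whose table held 8 promoter entries for 5 of the 9 members. Each is printed 5′ to 3′ on the gene's strand and stops before the annotated gene, with motif matches in capitals. Angptl8 lies at chr9:21835260-21835509 on the plus strand, Lmf1 at chr17:25578924-25579084 on the plus strand and Apoe at chr7:19699189-19699438 on the minus strand.
Angptl8: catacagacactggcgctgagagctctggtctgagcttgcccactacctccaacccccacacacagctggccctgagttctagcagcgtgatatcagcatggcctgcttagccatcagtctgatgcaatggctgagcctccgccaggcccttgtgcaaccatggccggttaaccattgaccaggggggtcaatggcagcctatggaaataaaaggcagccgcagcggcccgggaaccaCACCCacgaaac
Lmf1: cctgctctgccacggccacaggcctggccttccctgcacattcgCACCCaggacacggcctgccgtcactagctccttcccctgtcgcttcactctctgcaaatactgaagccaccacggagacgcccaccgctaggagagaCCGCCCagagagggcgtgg
Apoe: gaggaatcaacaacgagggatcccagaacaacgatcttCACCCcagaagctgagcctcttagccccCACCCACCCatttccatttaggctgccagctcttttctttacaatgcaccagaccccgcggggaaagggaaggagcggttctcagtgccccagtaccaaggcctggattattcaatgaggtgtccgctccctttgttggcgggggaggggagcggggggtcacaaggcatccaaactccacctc
In the 250 bases before each RefSeq start, 7 motifs were searched on both strands: the nuclear receptor core AGGTCA, the cyclic AMP response element TGACGTCA, the E-box CACGTG, the CCAAT box, the TATA box TATAAA, the GC box GGGCGG and the CACCC box. Positions count back from the printed end. The Angptl8 window held CACCC at -12 to -8. The Lmf1 window held CACCC at -117 to -113 and GGGCGG on the minus strand at -19 to -14, its RefSeq start lying 89 bases beyond the printed end, inside the annotated gene. The Apoe window held CACCC at -212 to -208, -184 to -180 and -180 to -176, the last 2 sharing a base. CACCC occurs in 52.0% of the 32851 promoters of the table and GGGCGG in 32.7%, so these matches are common. None of the 3 windows held the nuclear receptor core, the cyclic AMP response element or the E-box, which occur in 14.0%, 1.55% and 6.02% of promoters.

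Levels of different members were compared per length, as CPM per kilobase of the longest coding transcript. In controls Lpl was the most abundant at 912 ± 52.4 CPM per kilobase (SD, n = 3) and ranked 39 among 13037 coding genes. Cd36 followed at 454 ± 26.3, Apoc1 at 183 ± 4.87 and Apoe at 158 ± 33.2 CPM per kilobase. A wide step separated these from the remaining members, with Apoe 4.70 times Gpihbp1. Gpihbp1 stood at 33.7 ± 9.33, Angptl4 at 27.9 ± 1.44, Angptl8 at 26.5 ± 5.91, Vldlr at 20.9 ± 1.71 and Lmf1 at 16.4 ± 1.40 CPM per kilobase. The control ranges of Apoc1 and Apoe overlapped, as did each neighbouring pair from Gpihbp1 to Vldlr, so the order within those pairs was not resolved. Lpl and Cd36, Cd36 and Apoc1, Apoe and Gpihbp1, and Vldlr and Lmf1 did not overlap in controls. In knockouts Angptl8 (34.5 to 41.5 CPM per kilobase) lay above Angptl4 (26.4 to 32.8), whereas in controls Angptl8 (21.2 to 32.9) spanned Angptl4 (27.1 to 29.6). The order depended on the length used: with the union of exons Cd36 (430.3) stood above Lpl (358.1), and with the mean coding transcript length Vldlr (51.0) moved up to the sixth place and Apoe passed Apoc1.

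**Figure D1:**
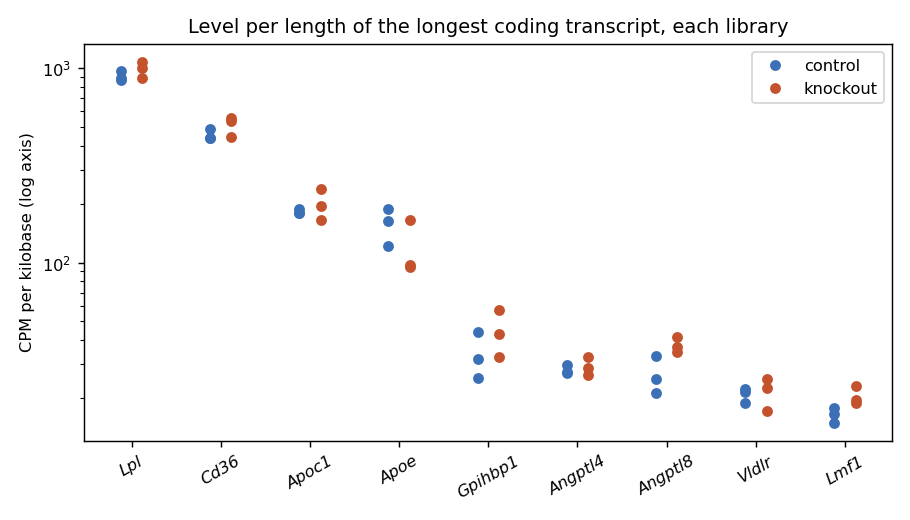
Level of each member in CPM per kilobase of its longest coding transcript, on a log axis, with 1 point per library for the 3 control and 3 knockout libraries. Lpl and Cd36 lie at the top, and the 5 members from Gpihbp1 to Lmf1 form a group below Apoe.

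In the genotype comparison 0 of the 9 members were called at an adjusted p under 0.05, where 9 of 14767 genes tested (0.0609%) were called in either direction, 0.0271% higher and 0.0339% lower. In 8 members the log2 fold change was above 0 and in Apoe alone below 0. The median of the members was 0.13 on the log2 scale, against 0.011 over all genes tested, of which 51.7% were above 0. The members Angptl8 and Lmf1 had an unadjusted p under 0.05, as had 10.5% of all genes. Their knockout libraries all lay above their controls, as in 7.63% of all genes, and no member had all knockouts below, as in 10.8%. The other 7 members overlapped between the groups. Markers of brown adipocytes lay on the same side: 10 of 10 had a log2 fold change above 0, with a median of 0.31, and in 5 of 10 all knockouts lay above all controls, with 0 called. These 10 summed to 8230 to 9201 CPM in controls and 10430 to 11360 CPM in knockouts. Ucp1 alone gave 5398 to 6008 CPM and 7111 to 7592 CPM of these sums. Of 8 general adipocyte markers 6 were above 0 and 2 below. All 6 white adipocyte markers tested were below 0 (48.3% of all genes were), with a median of -0.73 and 0 called. In 5 of these 6 all knockouts lay below all controls (10.8% of all genes). The part of any of these markers in the members' values was not tested.

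**Figure D2:**
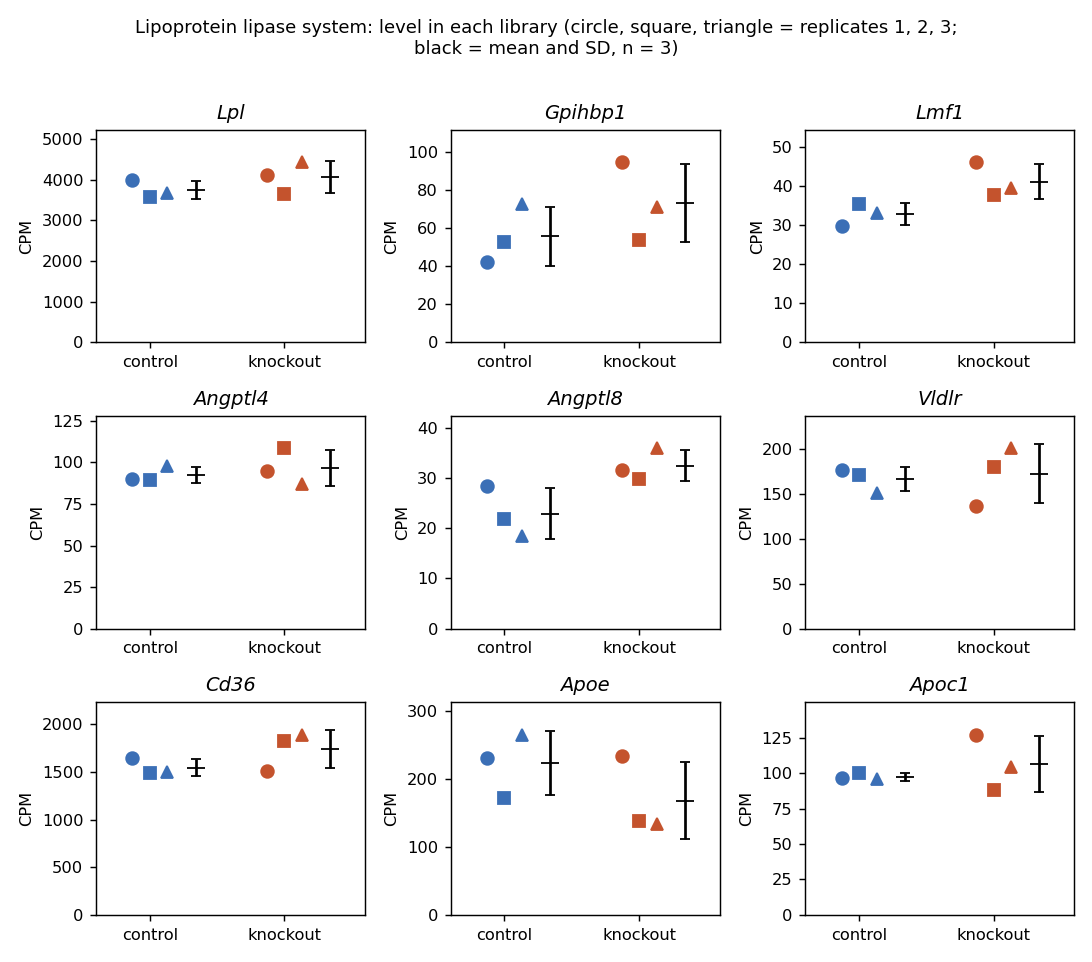
CPM of the 9 members in each of the 3 control and 3 knockout libraries, with 1 panel per gene, each on its own axis, and bars for the group mean and SD. The 3 knockout points lie above the 3 control points for Lmf1 and Angptl8 and overlap them for the other 7 members.

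The enzyme itself did not separate the groups. Lpl (ENSMUSG00000015568, chromosome 8, 68880491 to 68907448, plus strand, 10 exons) gave 3995, 3584 and 3676 CPM in control libraries 1 to 3 and 4111, 3651 and 4437 CPM in knockout libraries 1 to 3. Knockout library 2 lay between the controls, and the other knockouts lay above all of them. The means were 3751 ± 216 and 4066 ± 395 CPM (SD, n = 3 each), and the log2 fold change was 0.12 (SE 0.11, 95% interval -0.13 to 0.37, edgeR adjusted p = 0.766). Set against the adipocyte marker Adipoq in the same libraries, the log2 ratio of Lpl differed by 0.037 between groups (two-sided exact permutation p = 0.8; the smallest p that 3 against 3 libraries allow is 0.1).

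Lmf1, the endoplasmic reticulum factor that lets the lipase fold into its active form, was higher in every knockout library than in every control, without passing the test over all genes. Lmf1 (ENSMUSG00000002279, chromosome 17, 25579085 to 25662826, plus strand) gave 29.9, 35.5 and 33.1 CPM in controls and 46.2, 37.8 and 39.5 CPM in knockouts. Its means were 32.9 ± 2.81 and 41.2 ± 4.48 CPM (SD, n = 3 each), and the log2 fold change was 0.33 (SE 0.13, 95% interval 0.02 to 0.63, adjusted p = 0.444). Knockout library 1 was the highest of the 6, and without it the log2 fold change was 0.23 (adjusted p = 0.368). Over the 6 libraries log2 Lmf1 followed the log2 sum of the brown adipocyte markers at r = 0.908 (exact permutation p = 0.00972, adjusted p = 0.262 over 54 relations) and rho = 0.943 (exact permutation p = 0.0167, adjusted p = 0.45), and at r = 0.928 without control library 1 and knockout library 3. Within groups, as deviations from the group means, r was 0.712 (exact permutation within groups, p = 0.194, adjusted p = 0.938). Lmf1 also ran against other marker lists over the 6 libraries. With the hepatocyte sum r was -0.823 (exact permutation p = 0.0389, adjusted p = 0.35) and rho -0.771 (exact permutation p = 0.103, adjusted p = 0.669). With the fibroblast sum r was -0.594 (exact permutation p = 0.203, adjusted p = 0.608) and rho -0.829 (exact permutation p = 0.0583, adjusted p = 0.63). Within groups r was -0.357 for the hepatocyte sum (exact permutation within groups, p = 0.556). For the fibroblast sum it was 0.213, of the other sign (exact permutation within groups, p = 0.778).

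Gpihbp1, the endothelial anchor that holds the lipase in the capillary, varied as much within groups as between them. Gpihbp1 (ENSMUSG00000022579, chromosome 15, 75596628 to 75599481, plus strand) gave 41.9, 52.7 and 72.3 CPM in controls and 94.6, 53.8 and 71.2 CPM in knockouts. Knockout library 1 stood above the rest, and the other knockout libraries lay within the control range. The means were 55.6 ± 15.4 and 73.2 ± 20.5 CPM (SD, n = 3 each), and the log2 fold change was 0.40 (SE 0.25, 95% interval -0.19 to 0.98, adjusted p = 0.629). Without knockout library 1 it was 0.17 (adjusted p = 0.765). The 10 endothelial markers summed to 690.3 to 891 CPM in controls and 751 to 881 CPM in knockouts, and Pecam1, an endothelial adhesion molecule, gave 116, 118 and 126 CPM in controls and 108, 128 and 119 CPM in knockouts. Per 100 counts of Pecam1 there were 36.2, 44.5 and 57.4 counts of Gpihbp1 in controls and 87.8, 42.1 and 59.9 in knockouts, a log2 difference of 0.42 (exact permutation p = 0.4).

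Of the angiopoietin-like regulators, Angptl4 inactivates the lipase in fat and is known to respond to fasting. Angptl4 (ENSMUSG00000002289, chromosome 17, 33773750 to 33781830, minus strand) gave 89.9, 89.5 and 97.9 CPM in controls and 94.97, 108.5 and 87.2 CPM in knockouts, with knockout values on either side of the controls. The log2 fold change was 0.068 (SE 0.13, 95% interval -0.22 to 0.36, adjusted p = 0.899), from means of 92.5 ± 4.75 and 96.9 ± 10.8 CPM (SD, n = 3 each).

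Angptl8, a feeding-induced regulator of the lipase, had the largest fold change above 0 among the 9 members with all 6 libraries. Gpihbp1 stood above it without control library 3 (0.59 against 0.34), without knockout library 2 (0.58 against 0.56), with the muscle covariate (0.63 against 0.41) and with knockout library 1 alone (0.77 against 0.47). Angptl8 (ENSMUSG00000047822, chromosome 9, 21835510 to 21837347, plus strand) lies across an intron of Dock6 on the opposite strand and shares 0 bases of exon with it. It gave 28.4, 21.9 and 18.4 CPM in controls and 31.7, 29.9 and 35.9 CPM in knockouts. The lowest knockout library exceeded the highest control library by a narrow margin. The means were 22.9 ± 5.12 and 32.5 ± 3.12 CPM (SD, n = 3 each), and the log2 fold change was 0.50 (SE 0.18, 95% interval 0.09 to 0.92, unadjusted p = 0.0231, adjusted p = 0.383 in edgeR). Leaving out single libraries gave values from 0.34 (without control library 3) to 0.68 (without control library 1), none of them called. Per 100 counts of Angptl4 there were 31.7, 24.5 and 18.8 counts of Angptl8 in controls and 33.4, 27.5 and 41.2 in knockouts, which overlapped (log2 difference 0.46, exact permutation p = 0.2). Its correlation with the brown adipocyte sum was r = 0.707 (exact permutation p = 0.132, adjusted p = 0.581) and rho = 0.829 (exact permutation p = 0.0583, adjusted p = 0.63), with r = 0.988 without control library 1 and knockout library 3. Within groups r was -0.21 (exact permutation within groups, p = 0.833, adjusted p = 1).

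Among the receptors, Vldlr binds lipoprotein particles and Cd36 takes up long-chain fatty acids. Vldlr (ENSMUSG00000024924, chromosome 19, 27216484 to 27254231, plus strand) gave 177, 171 and 151 CPM in controls and 137, 180.2 and 201 CPM in knockouts. The knockouts spread to either side of the controls, with means of 167 ± 13.7 and 173 ± 32.5 CPM (SD, n = 3 each) and a log2 fold change of 0.054 (SE 0.16, 95% interval -0.32 to 0.43, adjusted p = 0.946). Cd36 (ENSMUSG00000002944, chromosome 5, 17781690 to 17888801, minus strand) gave 1648, 1491 and 1495 CPM in controls and 1511, 1818 and 1890 CPM in knockouts. Knockout library 1 lay within the control range and the other knockout libraries above it. The log2 fold change of Cd36 was 0.17 (SE 0.12, 95% interval -0.11 to 0.46, adjusted p = 0.676), from means of 1545 ± 89.6 and 1740 ± 201 CPM (SD, n = 3 each). For both receptors knockout library 1, which held more muscle RNA than the other knockouts, was the lowest knockout. The controls held still more, and their Vldlr (151 to 177 CPM) lay above that library (137 CPM). Against the log2 muscle sum r was -0.661 for Vldlr (exact permutation p = 0.158, adjusted p = 0.581). For Cd36 it was -0.893 (exact permutation p = 0.0236, adjusted p = 0.338). Without knockout libraries 2 and 3 these became 0.967 and 0.442. Those libraries held most of the range in muscle RNA, so leaving them out cannot decide either relation. Within groups r was -0.874 for Vldlr and -0.835 for Cd36 (exact permutation within groups, p = 0.25 and adjusted p = 0.938 for each). Without knockout library 1 the fold change was 0.196 for Vldlr (adjusted p = 0.465) and 0.26 for Cd36 (adjusted p = 0.201). With the muscle marker level as a covariate the fold change was -0.31 for Vldlr and -0.039 for Cd36, neither called. The muscle sum was higher in every control than in every knockout, so this fit cannot part genotype from muscle RNA. The part of muscle RNA in the values of Vldlr and Cd36 was not tested. Per 100 counts of Lpl there were 40.7 to 41.6 counts of Cd36 in controls and 36.8 to 49.8 in knockouts.

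Apoe, which guides remnant particles to receptors and is also a major product of macrophages, was the 1 member with a fold change below 0. Apoe (ENSMUSG00000002985, chromosome 7, 19696109 to 19699188, minus strand) gave 231, 172 and 265 CPM in controls and 233, 137 and 133 CPM in knockouts. Knockout library 1 lay among the controls, and the other knockouts lay below all of them. The means were 223 ± 46.8 and 168 ± 56.2 CPM (SD, n = 3 each), and the log2 fold change was -0.41 (SE 0.25, 95% interval -0.99 to 0.17, adjusted p = 0.620). Without knockout library 1 the fold change was -0.72 (SE 0.17, adjusted p = 0.0389) and Apoe was called lower, where 5.35% of the 15188 genes then tested were called lower. With the muscle marker level as a covariate it was 0.058 (adjusted p = 0.935), close to the 0.066 of knockout library 1 alone against the controls. The muscle sum itself differed between the groups (13540 to 18150 CPM in controls, 63.4 to 8345 CPM in knockouts). The covariate fit therefore cannot part genotype from muscle RNA.

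Macrophage markers moved with Apoe across the libraries. The 10 markers summed to 155, 95.5 and 183 CPM in controls and 161, 81.8 and 73.7 CPM in knockouts, in the same order as Apoe, and none was at 0 in every library. All 10 had a log2 fold change below 0 (48.3% of all genes did), with a median of -0.44, and 0 were called. Adgre1, the macrophage receptor F4/80, gave 5.71, 3.04 and 7.64 CPM in controls and 5.75, 3.26 and 2.43 CPM in knockouts. Over the 6 libraries the correlation of log2 Apoe with the log2 macrophage sum was r = 0.992 (exact permutation p = 0.00139, adjusted p = 0.075 over the 54 relations of members with marker lists) and Spearman's rho was 1.0 (exact permutation p = 0.00278, adjusted p = 0.15). As deviations from the group means, r was 0.996 (exact permutation within groups, p = 0.0278, the smallest that the 36 arrangements allow, adjusted p = 0.938). Leaving out control library 3 and knockout library 3, the farthest from the median, gave r = 0.982. The ratio of Apoe to Adgre1 differed by 0.076 on the log2 scale (exact permutation p = 0.8). Fibroblast markers also followed Apoe: they summed to 827, 571 and 771 CPM in controls and 566, 387 and 351 CPM in knockouts, and 9 of 10 were below 0 with a median of -0.66. Their correlation with Apoe was r = 0.915 (exact permutation p = 0.025, adjusted p = 0.338) and rho = 0.714 (exact permutation p = 0.136, adjusted p = 0.669), and r = 0.608 without knockout libraries 2 and 3. Within groups the fibroblast r was 0.950 (exact permutation within groups, p = 0.0833, adjusted p = 0.938). For the muscle markers r was 0.818 (exact permutation p = 0.0389, adjusted p = 0.35) and rho 0.543 (exact permutation p = 0.297, adjusted p = 0.669). It was -0.346 without the same 2 libraries, which held most of the range in muscle RNA, so leaving them out cannot decide that relation. Within groups the muscle r was 0.721 (exact permutation within groups, p = 0.278, adjusted p = 0.938). The part of macrophage, fibroblast or muscle content in the Apoe difference was not tested.

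Apoc1, a small apolipoprotein that lies beside Apoe on chromosome 7 and hinders particle uptake, had a fold change on the other side of 0. Beyond their ratio, its relation to Apoe was not tested. Apoc1 (ENSMUSG00000040564, chromosome 7, 19689481 to 19692660, minus strand) gave 96.2, 100.3 and 95.5 CPM in controls and 127, 88.2 and 104 CPM in knockouts. The controls were tight and the knockouts spread to either side of them (97.3 ± 2.60 and 106.4 ± 19.5 CPM, SD, n = 3 each). The log2 fold change was 0.13 (SE 0.15, 95% interval -0.22 to 0.48, adjusted p = 0.825). Without knockout library 1, its highest, it was -0.017 (adjusted p = 0.970). Per 100 counts of Apoe there were 41.6, 58.2 and 36.1 counts of Apoc1 in controls and 54.6, 64.2 and 78.3 in knockouts (log2 difference 0.55, exact permutation p = 0.2). Across the 9 ratios tested, the groups overlapped in each and every adjusted p was 0.9.

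**Figure D3:**
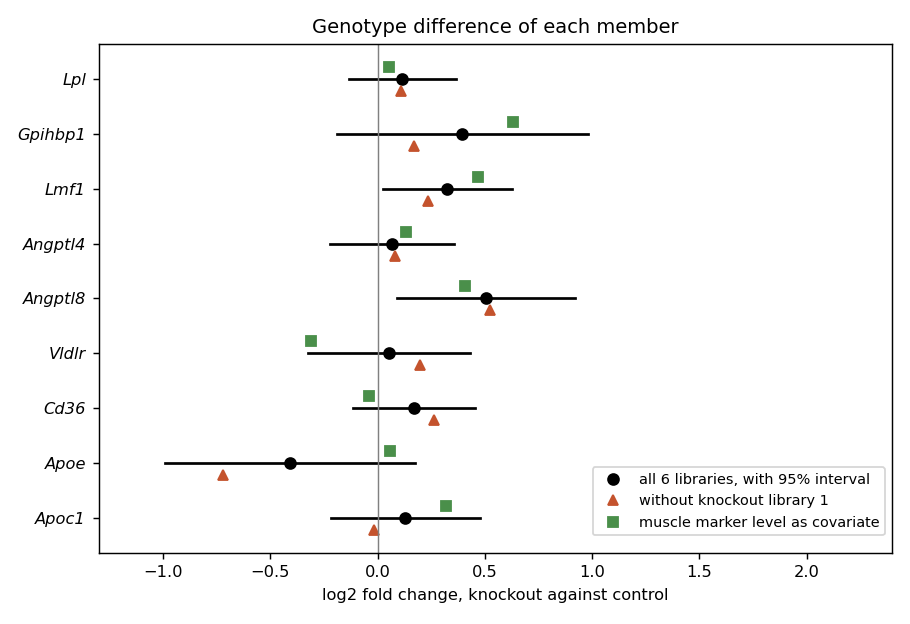
Log2 fold change of each member, knockout against control, from edgeR with its 95% interval (circles), without knockout library 1 (triangles) and with the muscle marker level as a covariate (squares). Intervals exclude 0 before adjustment for Lmf1 and Angptl8, and Apoe runs from -0.72 to 0.058 across the 3 fits. The muscle marker level differed between the groups, so the squares cannot part it from genotype.

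The wider lipoprotein pathway was followed in a list of 35 further genes, of which 31 were tested. Of these 13 had a log2 fold change above 0 and 18 below, with a median of -0.19 (all genes 0.011), and 0 were called. Apolipoproteins made up much of the lower side: 9 of 9 in this list were below 0, with a median of -0.79. In 3 of 9 all knockouts lay below all controls, as in 10.8% of all genes. Some of the 9 were at low counts, and the list leaves out the members Apoe (-0.41) and Apoc1 (0.13). Apoa1, the main protein of high density lipoprotein, gave 9.78, 8.25 and 6.70 CPM in controls and 5.01, 4.69 and 4.10 CPM in knockouts (log2 fold change -0.84, SE 0.21, adjusted p = 0.212). Apoa2, another high density lipoprotein protein, gave 13.7, 9.17 and 8.71 CPM in controls and 7.92, 7.04 and 5.40 CPM in knockouts (log2 fold change -0.63, adjusted p = 0.404). Apob, the scaffold of very low density lipoprotein, overlapped, with 18.5, 11.97 and 9.32 CPM in controls and 9.54, 6.58 and 5.76 CPM in knockouts (log2 fold change -0.86, adjusted p = 0.356). With no low-count filter Apoa1 (adjusted p = 0.0459) and Apob (adjusted p = 0.00511) were called lower, where 2.45% of genes were. Without knockout library 1 Apoa1 (adjusted p = 0.0468) and Lrpap1 (adjusted p = 0.0207) were, 2 of 31 genes where 5.35% of all genes were.

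Apoa1, Apoa2 and Apob are known as hepatocyte products, and hepatocyte markers moved with them. Apod, also in the list, is known from fibroblasts and other peripheral cells. The 6 markers, which share no gene with the apolipoproteins, summed to 261.5, 171 and 175 CPM in controls and 121, 108 and 108 CPM in knockouts. All 6 were below 0 with a median of -0.84, and Alb, serum albumin, gave 211, 140 and 144 CPM in controls and 99.3, 86.1 and 87.7 CPM in knockouts (log2 fold change -0.86, SE 0.18, adjusted p = 0.156). The part of such RNA in the apolipoprotein differences was not tested. Apoc2, the activator of the lipase, was near the detection limit, with 19, 11 and 6 counts in controls and 10, 9 and 0 in knockouts (log2 fold change -0.79, SE 0.86, adjusted p = 0.807). The readthrough gene Gm44805 shares 646 bases of exon with Apoc2 and took 6 counts in knockout library 3, so reads of the pair cannot be told apart.

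**Figure D4:**
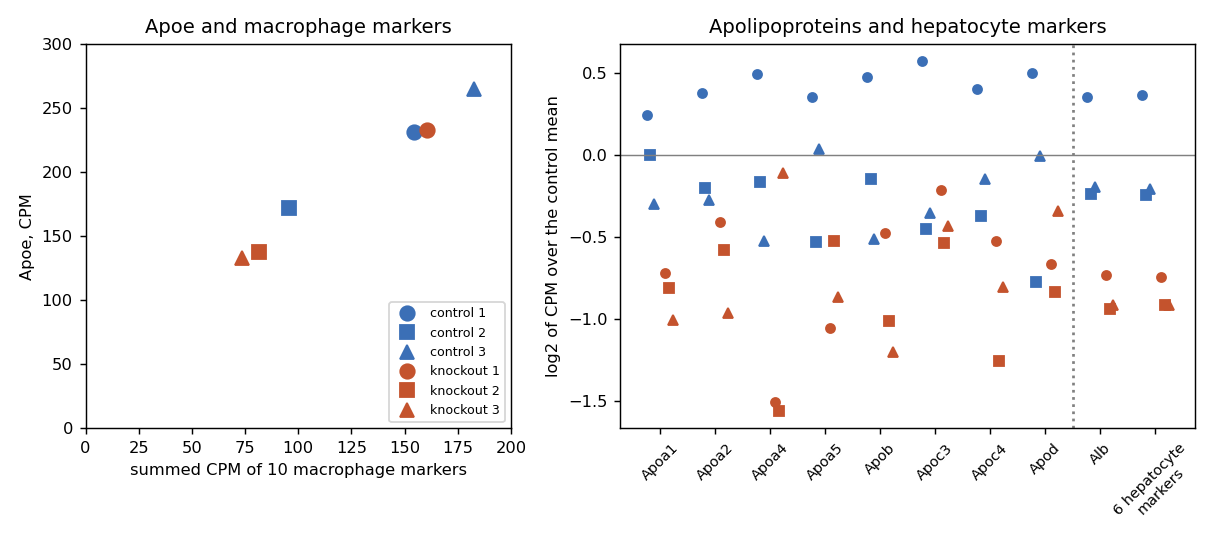
Left, Apoe in CPM against the summed CPM of 10 macrophage markers in the 6 libraries. Right, the log2 of CPM over the control mean for 8 apolipoproteins detected in every library, for Alb and for the sum of 6 hepatocyte markers. Apoe and the macrophage sum order the libraries alike, and knockouts of Apoa1, Apoa2 and Alb lie below all controls.

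Among the other genes of the list, the groups did not overlap in 1 of 4 lipases and transfer proteins and 2 of 8 receptors and adaptors. The same held for 1 of 3 lipase regulators, 1 of 4 proprotein convertases and 0 of 3 heparan sulfate proteins. Over all genes 18.4% did not overlap. Lrpap1, a chaperone of lipoprotein receptors, gave 37.2, 32.8 and 33.9 CPM in controls and 30.2, 23.1 and 23.8 CPM in knockouts (log2 fold change -0.43, SE 0.14, adjusted p = 0.350). Lrp1, a remnant receptor, had a log2 fold change of -0.19 (adjusted p = 0.791). All 8 receptors and adaptors tested had a median of 0.026, with 5 above 0 and 3 below.

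**Figure D5:**
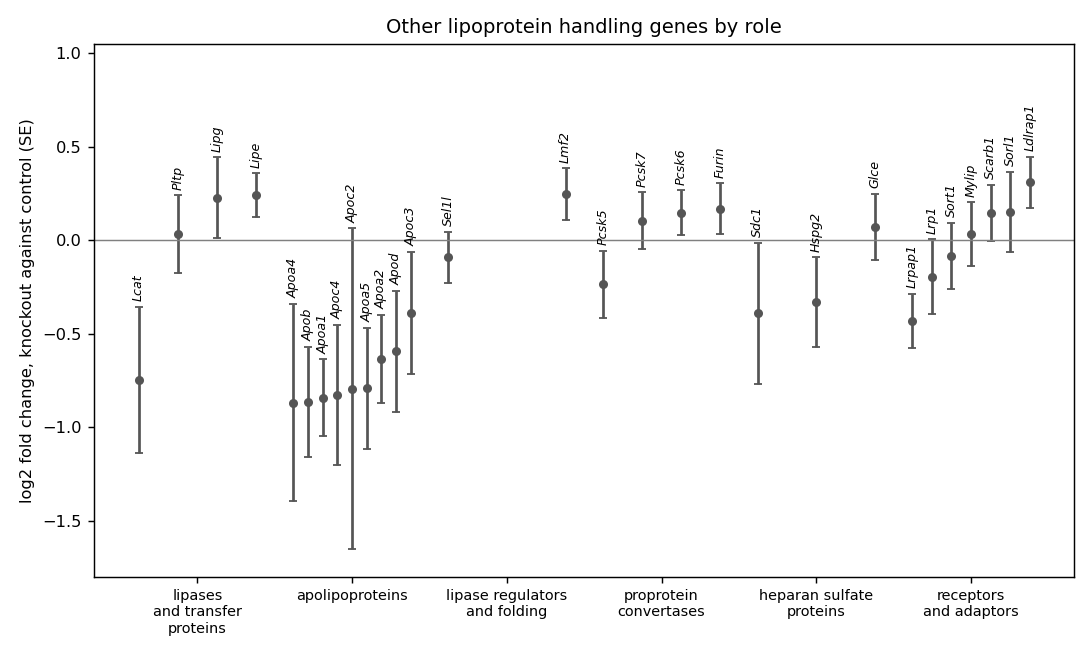
Log2 fold change, knockout against control, of the tested genes of the wider pathway, grouped by role, with 2 genes left out of the plot. The 9 apolipoproteins lie below 0, whereas the receptors and adaptors lie on either side of it.

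Downstream of the lipase, 16 genes of fatty acid entry and activation were tested, 11 above 0 and 5 below, with a median of 0.080 and 0 called. Fabp4, the adipocyte fatty acid carrier, gave 4674, 3933 and 4482 CPM in controls and 6048, 4623 and 4964 CPM in knockouts, which overlapped (log2 fold change 0.26, SE 0.13). Acsl5, an acyl-CoA synthetase, gave 1075, 1026 and 829.6 CPM in controls and 1141, 1248 and 1419 CPM in knockouts (log2 fold change 0.38, adjusted p = 0.416). Got2, a mitochondrial aminotransferase also described as a fatty acid binding protein, gave 117, 107 and 97.1 CPM in controls and 77.3, 44.8 and 43.2 CPM in knockouts (log2 fold change -0.96, SE 0.23, adjusted p = 0.205). Slc27a1, a fatty acid transporter, gave 327, 364 and 424 CPM in controls and 312, 303 and 286 CPM in knockouts (log2 fold change -0.31, adjusted p = 0.487). Got2 ordered the libraries as the muscle markers did, and the part of muscle RNA in its difference was not tested.

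Of 16 transcription factors and coactivators known to act on these genes, 13 were above 0 with a median of 0.13, 0 were called, and the groups did not overlap in 0 of 16, where 0.0609% of all genes were called and 18.4% did not overlap. Pparg, the adipocyte nuclear receptor that drives Lpl, gave 133, 174 and 147 CPM in controls and 169, 200.4 and 179 CPM in knockouts (log2 fold change 0.27, SE 0.14, adjusted p = 0.558). Esrra, an oxidative nuclear receptor, had a log2 fold change of 0.33 (adjusted p = 0.571). The sterol receptors Nr1h3 and Nr1h2 each had one of 0.20.

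The genes whose log2 CPM most resembled a member were sought over the 6 libraries among 9435 genes, as a description without a test, since all points share the libraries and their make-up. For Lpl they were Hp1bp3 (r = 0.994), Pgap2 (r = 0.980) and Prpf31 (r = 0.978). For Gpihbp1 they were Fcgrt, Fbxl15 and Tsen54, each above r = 0.99. For Angptl4 they were Arhgap1 (r = 0.977), Rgs4 (r = 0.968) and Vps35l (r = 0.950). For Apoe they were Cfp (r = 0.991), Asb8 (r = 0.987) and Igfbp4 (r = 0.986).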

How the data were processed

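Per the labels' protocols, polyadenylated RNA was read from both ends after NEBNext Ultra II preparation. The submitters' processing notes name Salmon, StringTie and edgeR and the build GRCm38, with tool versions, settings and strand use not given in the sources used here. Estimated counts, fractional and not normalized, are what the authors deposited. The sample labels were followed where the series design text differs (depot, replicate number, 20 weeks as an age and not as the time on chow, and no mention of cold). Symbols and positions came from GENCODE vM21 (54131 of 54385 entries matched).

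Counts were rounded, filtered with filterByExpr (minimum count 10, minimum total 15) and tested over all 14767 genes passing in edgeR 4.0.16 (R 4.3.3) by its two-sided quasi-likelihood test, with TMM scaling and Benjamini-Hochberg adjustment. CPM are per 1000000 of the TMM-scaled library size. Ratios and correlations used exact permutation tests. On simulated counts (14404 genes tested) 87.5% of 4-fold, 37.5% of 2-fold and 2.04% of 1.5-fold changes were called. The members and lists were chosen with earlier results of these data known. Named were all members, the 4 genes with the smallest p of each other list, and Apoc2, Lrp1, Fabp4, Pparg and 6 defining cell markers, with 2 genes of the rule not reported here. Alternatives were other scalings, filters and tools (DESeq2 1.42.0, limma 3.58.1 with voom, robust dispersion), each library left out, a replicate block and a muscle marker covariate. Knockout library 1 alone against the controls and correlations within groups were chosen after seeing the data.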

Additional observations from a re-analysis of the deposited data

How the results depend on the processing

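Of 162 alternative values of the 9 members, 151 kept their direction and side of the threshold, 10 changed sign and 1 passed the threshold. The sign changes, none of them called, were Vldlr (-0.31), Cd36 (-0.039) and Apoe (0.058) with the muscle covariate, and Vldlr (-0.28), Cd36 (-0.028) and Apoe (0.066) with knockout library 1 alone. The muscle covariate and knockout library 1 alone are not separate checks, since the muscle level differed between the groups and varied most among the knockouts. With single libraries left out, Vldlr ran from -0.068 (without knockout library 3) to 0.196, and was -0.038 without control library 3. Angptl4 ran from -0.021 (without knockout library 2) to 0.139 and Apoc1 from -0.017 (without knockout library 1) to 0.248. Members called lower ranged from 0 to 1 with single libraries left out, the 1 being Apoe without knockout library 1. Of the 31 further lipoprotein genes, 0 to 2 were called lower with a library left out (Apoa1 and Lrpap1 without knockout library 1), 2 with no low-count filter (Apoa1 and Apob) and 1 with knockout library 1 alone (Hspg2), where 1.79% of genes were called lower and the controls alone gave the spread, so that this call says nothing of the genotype. Over all genes, calls numbered 4 higher and 5 lower, against 31 and 276 with DESeq2, 111 and 782 with no low-count filter, 45 and 812 without knockout library 1, 415 and 290 with knockout library 1 alone, 7 and 39 with robust dispersion and 11 and 8 with the muscle covariate. Voom called 27 lower, and leaving out any other library left 1 or 2 called lower. The cause was not tested. With the replicate number as a block 0 members were called, Apoe stood at -0.44 and 2 genes were called each way. Same-numbered libraries correlated at 0.0981, 0.132 and 0.106 in their deviations from the group means. Each library correlated best with its own number, and differently numbered libraries ran from -0.0915 to -0.00478. The main fit did not take the numbers as pairs, as the labels do not give pairs. A link between same-numbered libraries was not tested. With 3 libraries a group, 2.04% of simulated 1.5-fold changes were called. Those genes were drawn from all genes tested, with a spread set by mean level, so the share is not the power for the 9 members.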
